A study of Homo sapiens with 9 samples.

Results

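The 2 mature arms of miR-9, hsa-miR-9-5p and hsa-miR-9-3p, were followed in small RNA libraries of a T cell line. They were found by their mature names in the deposited count table, where they fill 6 of 2883 rows: each arm has 1 row on each of the 3 precursors mir-9-1, mir-9-2 and mir-9-3, out of 2654 mature names and 1917 precursors in all. Both arms were chosen by name with their measured counts at all 3 times already known, so their levels are given as a description, without a test. The comparisons between times were tested over all rows. Their p-values for miR-9 belong to members chosen with these counts known.

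The cells were Jurkat, clone E6-1, a T lymphoblast line of human origin in long use for work on T cell receptor signalling. Activated cells had been kept for 5 h or 12 h on plates coated with antibody to CD3 (10 µg/mL), the signalling part of the receptor, with anti-CD28 (5 µg/mL), directed at a costimulatory receptor, in the medium; control cells were not activated (0 h). Each time had 3 biological replicates of this 1 line, 9 libraries in all. No unactivated cells stood beside the 5 h and 12 h samples, so effects of activation and of time in culture cannot be told apart.

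miR-9 is one of the most strongly conserved animal miRNAs and is best known from the developing brain. There miR-9-5p represses the transcriptional repressor REST and the nuclear receptor NR2E1, and miR-9-3p represses the REST partner CoREST. In human blood cells miR-9-5p has been reported to repress NFKB1 in activated monocytes, and PRDM1 and BCL6 in activated CD4+ T cells. The human genome carries 3 separate genes that yield the same pair of arms, and either strand of the duplex can be loaded into an Argonaute protein, which then finds targets mainly through the seed, bases 2 to 8 of the miRNA.

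The mature sequences (RefSeq, GRCh38.p14) are shown with the seed in capitals, since the arms of this one duplex read different targets.
hsa-miR-9-5p: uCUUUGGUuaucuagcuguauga
hsa-miR-9-3p: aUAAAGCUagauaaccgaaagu
The arms are 23 and 22 bases long. Among 2370 human mature names in the RefSeq table, which holds 2365 of the names counted here, no other miRNA had the seed of either arm, so each arm formed a seed group of its own.

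The 3 hairpins are shown next with both arms in capitals, because only the lower case bases around the arms differ between the precursors.
MIR9-1: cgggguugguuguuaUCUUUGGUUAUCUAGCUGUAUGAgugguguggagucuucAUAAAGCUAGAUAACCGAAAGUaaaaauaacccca
MIR9-2: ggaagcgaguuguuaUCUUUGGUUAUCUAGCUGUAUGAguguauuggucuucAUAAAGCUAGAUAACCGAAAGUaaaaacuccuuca
MIR9-3: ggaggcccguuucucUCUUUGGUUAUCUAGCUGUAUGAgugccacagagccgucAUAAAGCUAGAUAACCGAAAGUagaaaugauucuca
On GRCh38.p14 MIR9-1 lies at chr1:156420341-156420429 on the minus strand, MIR9-2 at chr5:88666853-88666939 on the minus strand and MIR9-3 at chr15:89368017-89368106 on the plus strand. In GENCODE 29, MIR9-1 lies within C1orf61, now named MIR9-1HG, and no exon of the 15 overlapping transcripts covers it. MIR9-2 lies within the long non-coding RNA LINC00461, now named MIR9-2HG, where 5 of 10 overlapping transcripts have an exon over the hairpin. MIR9-3 lies within the long non-coding RNA MIR9-3HG, outside the exons of its 3 overlapping transcripts. Outside the arms the hairpins diverge: identity over the whole hairpin was 83.1% between MIR9-1 and MIR9-2, 77.8% between MIR9-1 and MIR9-3 and 79.1% between MIR9-2 and MIR9-3.

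Table totals ranged from 6631839 to 16207031 counts per library, and replicate 3 of 0 h and replicate 3 of 12 h were the shallowest. The unit of level is CPM, counts scaled by TMM factors to a library of 1000000, a total in which a miRNA with several precursor rows enters the total more than once. A count of 3, used as the floor for a miRNA with no counts, equals between 0.176 CPM (deepest library) and 0.471 CPM (shallowest). Reads carried no molecular identifiers, so floors and counting intervals cover counting error only.

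The libraries held miRNAs of blood cells. All 5 blood and T lymphoid miRNAs of a short marker list were detected in every library. miR-181a-5p, a miRNA of immature T cells, averaged 29562 CPM and miR-142-3p, a miRNA of all blood lineages, 9203 CPM. The lowest of the 5, miR-150-5p, averaged 259 CPM. This list joins T lymphoid with general blood miRNAs, so by itself it does not tell T cells from other blood cells. The muscle miRNAs miR-1-3p and miR-133a-3p had 0 counts in all 9 libraries. The erythroid miR-451a averaged 5.69 CPM, the myeloid miR-223-3p 134 CPM, and the epithelial miR-200c-3p and miR-141-3p 103 and 62.7 CPM. The liver miRNA miR-122-5p lay between 0 and 66.8 CPM. A single 5 h library held 1139 of its 1467 counts, and it reached at most 2.13 CPM at 0 h and 9.03 CPM at 12 h. The source of these counts was not tested.

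Both arms of miR-9 were present in every library, with the 3p arm the more abundant. On the mir-9-1 rows, miR-9-5p had 685 to 3399 counts per library and miR-9-3p 3187 to 9397. With each mature name counted once, miR-9-5p made up 0.0252% ± 0.00559 and miR-9-3p 0.0916% ± 0.00829 of all miRNA counts (SD over 9 libraries). By mean CPM, miR-9-3p was number 61 and miR-9-5p number 105 among 1098 mature names with any count. In these bulk libraries fewer cells with miR-9 and less miR-9 per cell cannot be told apart. The place in single libraries ran from 55 to 65 for miR-9-3p and from 98 to 114 for miR-9-5p.

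miR-9-3p, at 587 ± 59.0 CPM over the 9 libraries, stood below miR-181d-5p (637 ± 99.1), miR-23a-3p (626 ± 33.8) and miR-21-5p (596 ± 275). It stood above miR-30e-5p (539 ± 77.9), miR-146a-5p (538 ± 280) and miR-324-5p (515 ± 59.2). miR-9-5p, at 161 ± 31.9 CPM, stood below miR-501-3p (169 ± 44.8), miR-146b-5p (166 ± 29.02) and miR-301a-3p (165 ± 25.7), and above miR-641 (152 ± 27.3), miR-362-5p (149 ± 25.4) and miR-151a-3p (136 ± 14.9). The ranges over the 9 libraries overlapped between each arm and all 6 of its neighbours, so these places in the order do not separate beyond the spread.

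miR-9-5p, the arm that represses REST in neurons, had 134, 163 and 137 CPM in replicates 1, 2 and 3 at 0 h, 186, 191 and 199 CPM at 5 h, then 186, 143 and 107 CPM at 12 h. The 3 libraries of 5 h lay close together and above all others, by a margin of less than 1 CPM over replicate 1 of 12 h; the 3 libraries of 12 h spanned the range of 0 h and beyond it on both sides. The mean of 3 libraries was 144 ± 16.4 CPM (SD) at 0 h, then 192 ± 6.70 CPM (5 h) and 145 ± 39.2 CPM (12 h). The lowest value, in replicate 3 of 12 h, had an exact Poisson interval (95%) of 99.6 to 116 CPM.

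miR-9-3p, the arm that represses CoREST, had 542, 655 and 629 CPM at 0 h, 544, 678 and 551 CPM at 5 h, then 577, 609 and 500 CPM at 12 h. High and low libraries occurred at every time and the 3 groups overlapped. The mean of 3 libraries was 609 ± 59.0 CPM (SD) at 0 h, then 591 ± 75.1 CPM (5 h) and 562 ± 55.9 CPM (12 h). The plot of CPM by library shows both arms on axes that start at 0.

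**Figure D1:**
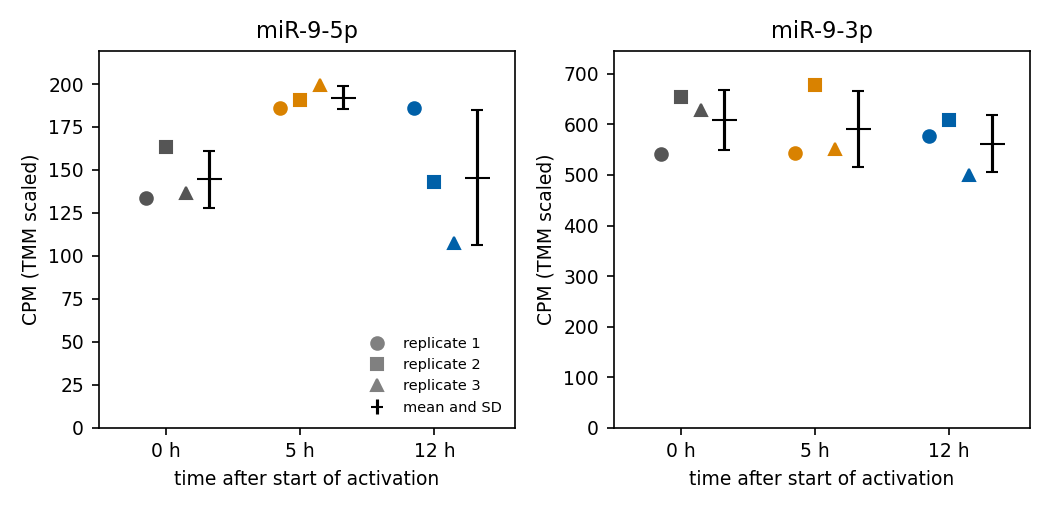
CPM (TMM scaled) of miR-9-5p (left) and miR-9-3p (right) on the mir-9-1 rows by hours after the start of activation. Symbols are the 3 replicates of each time and the bar is their mean and SD; miR-9-5p averaged 192 CPM at 5 h against 144 at 0 h, while the miR-9-3p groups overlap at all times.

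Over the 9 libraries the coefficient of variation was 19.9% for miR-9-5p and 10.0% for miR-9-3p. Of 119 miRNAs with a mean of at least 100 CPM, 102 varied less than miR-9-5p and 41 less than miR-9-3p, and the median was 12.7%. Counting error would give 1.72% to 3.82% for miR-9-5p and 1.03% to 1.77% for miR-9-3p.

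The comparison of 5 h with 0 h asked whether either arm had changed early after activation. In it 11 of 701 tested rows (1.57%) passed (edgeR quasi-likelihood test, adjusted p of 0.05 or less over all rows). None of the 6 miR-9 rows did, though all had passed the filter on low counts. These 6 rows are near copies of 2 arms, and a count of 0 near that background carries no result of its own. miR-9-5p was 1.33-fold as abundant at 5 h as at 0 h (log2 change 0.41, SE 0.18, 95% interval 0.03 to 0.80, unadjusted p = 0.0379, edgeR adjusted p = 0.695). Each 5 h library exceeded each 0 h library; 10.8% of all tested rows had groups that did not overlap. miR-9-3p had a log2 change of -0.04 (SE 0.13, 95% interval -0.32 to 0.24, edgeR adjusted p = 0.996), with overlapping groups; it was -0.20 without replicate 2 of 5 h, the highest of its group, and -0.09 without replicate 1 of 0 h, the lowest. The median log2 change of all 701 rows was 0.03.

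At 12 h against 0 h, 10 of 701 rows (1.43%) passed and 0 of the 6 miR-9 rows. miR-9-5p had a log2 change of 0.01 (SE 0.18, 95% interval -0.37 to 0.40, edgeR adjusted p = 0.992), a value whose sign turned in 12 of 22 other settings. Without replicate 1 of 12 h, the highest of its group, it was -0.25 (adjusted p = 0.710). miR-9-3p had a log2 change of -0.11 (SE 0.13, 95% interval -0.40 to 0.17, edgeR adjusted p = 0.974). Leaving out replicate 1 of 0 h gave -0.20. Leaving out a 12 h library gave -0.17 for replicate 1, -0.20 for replicate 2 and -0.07 for replicate 3. The intervals place both arms within 1.32-fold above 0 h, and no lower than 0.759-fold of it, at 12 h.

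At 12 h against 5 h, 4 of 701 rows (0.571%) passed and 0 of the miR-9 rows. The log2 change was -0.40 for miR-9-5p (SE 0.18, 95% interval -0.79 to -0.02, unadjusted p = 0.0425, edgeR adjusted p = 0.720) and -0.07 for miR-9-3p (SE 0.13, adjusted p = 1). The miR-9-5p value was -0.64 without replicate 1 of 12 h and -0.24 without replicate 3 of 12 h (edgeR adjusted p = 0.157 and 0.915). The miR-9-3p value ran from -0.13 to 0.07 with 1 library left out, and was positive without replicate 2 of 5 h. The 12 h libraries of miR-9-5p all lay below those of 5 h in CPM, where 12.8% of all rows had groups that did not overlap. On the deposited log2 scale they overlapped: the highest 12 h value was 11.0 and the lowest 5 h value 10.95. This comparison shares the 5 h libraries with the first. An F test for any difference among the 3 times passed 12 of 701 rows (1.71%) and no miR-9 row (edgeR adjusted p = 0.857 for miR-9-5p and 0.999 for miR-9-3p).

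**Figure D2:**
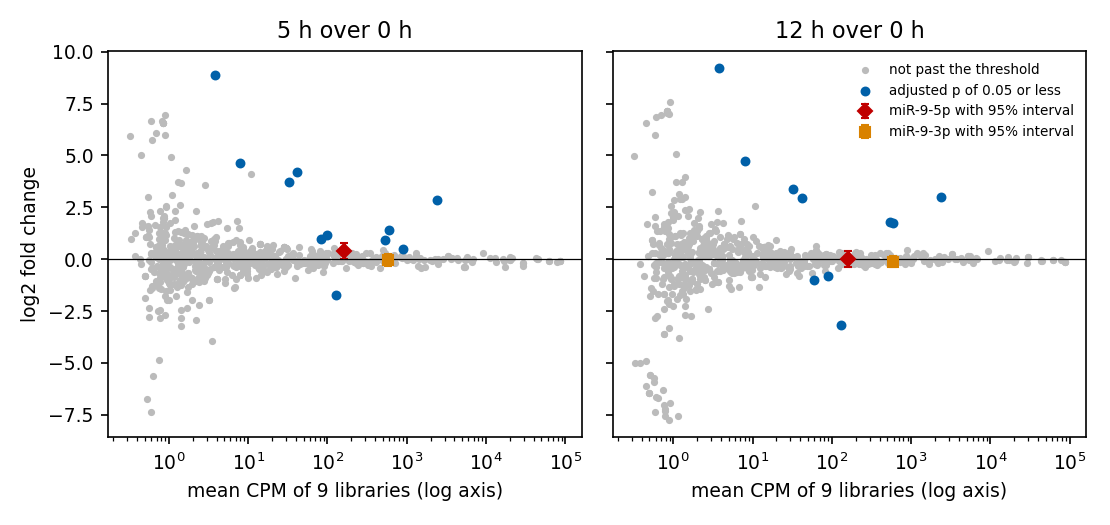
Log2 fold change at 5 h over 0 h (left) and 12 h over 0 h (right) against the mean CPM of the 9 libraries (log axis) for all 701 tested rows. Blue points passed the test; the miR-9 arms, with their 95% intervals, lie among the rows that did not, miR-9-5p at 0.41 at 5 h and 0.01 at 12 h.

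The balance of the arms was measured within each library, where it does not depend on the scaling between libraries. On mir-9-1, miR-9-3p had 2.76 to 4.65 times the counts of miR-9-5p. Expressed the other way, miR-9-5p had 24.6, 24.9 and 21.7 counts per 100 counts of miR-9-3p in replicates 1, 2 and 3 at 0 h. After activation for 5 h this ratio reached 34.2, 28.1 and 36.2, whereas the 12 h libraries had 32.2, 23.5 and 21.5. All 5 h libraries lay above all 0 h libraries, and the 12 h libraries overlapped both. The deepest library, replicate 3 of 5 h, had the highest ratio. The shallowest, replicate 3 of 0 h and replicate 3 of 12 h, had the lowest. Replicate 1 of 0 h, next in depth with 15121491 counts, had only 24.6. A dependence of the ratio on depth was not tested.

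The mean of 3 libraries was 23.8 ± 1.79 (SD) at 0 h, then 32.8 ± 4.20 (5 h) and 25.7 ± 5.71 (12 h). On the scale of log2 of 5p over 3p, 5 h minus 0 h came to 0.46 (SE 0.28, limma adjusted p = 0.743 over 165 precursors; exact two-sided permutation p = 0.1, or 0.3 adjusted over the 3 comparisons, where 0.1 is the smallest that 3 against 3 libraries can give). It was 0.09 between 12 h and 0 h (limma adjusted p = 0.921; exact permutation p = 0.9) and -0.37 between 12 h and 5 h (limma adjusted p = 0.877; exact permutation p = 0.2). At 5 h against 0 h, 0 of 165 arm ratios (0%) passed with limma and 9 had an unadjusted p below the threshold of 0.05, while groups did not overlap in 18.2% of them. At 12 h, 0 of 165 passed with limma against either 0 h or 5 h (unadjusted, 11 and 12), and 14.5% and 15.2% of the ratios had groups that did not overlap. Without replicate 1 of 12 h the difference between 12 h and 0 h was -0.08.

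**Figure D3:**
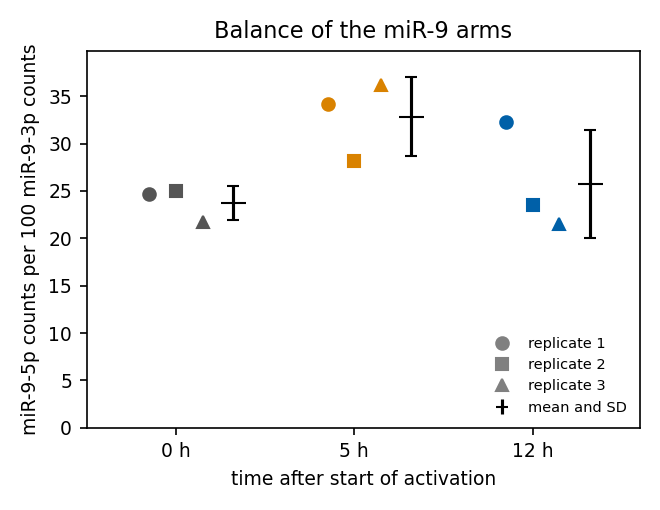
Counts of miR-9-5p per 100 counts of miR-9-3p on mir-9-1 in each library, by hours after the start of activation. Symbols are replicates and bars the mean and SD; the 5 h libraries lie at 28.1 to 36.2, the 0 h libraries at 21.7 to 24.9.

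Set beside other precursors, an excess of the 3p arm was common. Of 161 distinct pairs of arms with both arms past the filter, 75 (46.6%) had more 3p than 5p counts on average. In 50 pairs the log2 ratio of 5p over 3p was lower than the -1.89 of miR-9. Some pairs share an arm, such as miR-24-3p with miR-24-1-5p and miR-24-2-5p, or miR-16-5p with miR-16-1-3p and miR-16-2-3p. The nearly equal rows of such an arm enter more than 1 pair, on the 3p or the 5p side. How far this shifts the ratios was not tested. Among 16 pairs with both arms at a mean of at least 100 CPM, 9 had more 3p than 5p. Only miR-342, with 9.54 times more 3p than 5p, and miR-142, with 6.23 times, leaned further to the 3p side among those 16 than miR-9, with 3.71 times. Arms are different sequences, and how well the library kit captured each of them was not tested.

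**Figure D4:**
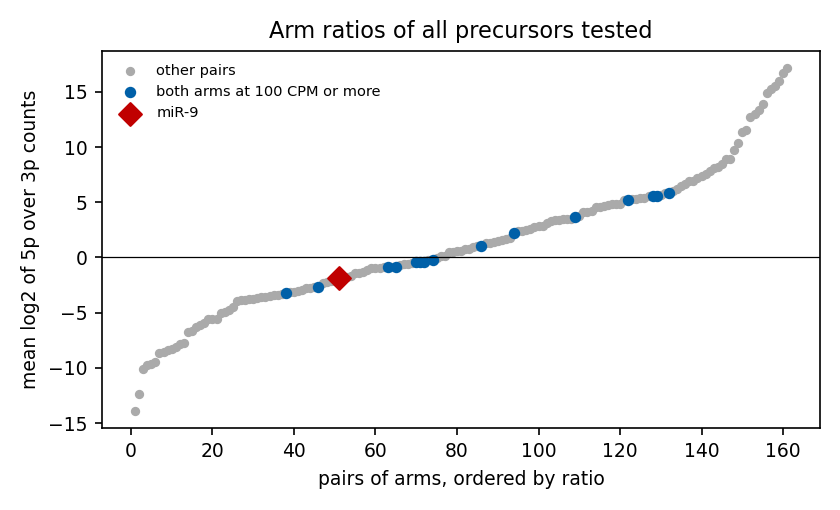
Mean log2 of 5p over 3p counts (0.5 added to each count, 9 libraries) for 161 distinct pairs of arms, ordered from the most 3p-rich to the most 5p-rich. The red diamond is miR-9 at -1.89; blue points are the other pairs with both arms at 100 CPM or more.

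The rows of the 3 precursors were compared next. For miR-9-5p the rows of mir-9-1, mir-9-2 and mir-9-3 held the same count in 8 of 9 libraries, and in replicate 2 of 12 h mir-9-1 had 1693 counts against 1690 on the others. Over all libraries the lowest of the 3 rows held 99.98% of the highest. For miR-9-3p the rows of mir-9-1 and mir-9-2 were equal in all 9 libraries, and mir-9-3 had fewer in each, by 11 to 168 counts. The counts thus do not show how much RNA came from each of the 3 genes.

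The hairpins printed above show which bases could part the rows. After the end of miR-9-3p, MIR9-1 and MIR9-2 share 5 further bases, whereas MIR9-3 shares only 1 with either. Before its start, MIR9-1 and MIR9-2 share 6 bases and MIR9-3 shares 2 with either. Around miR-9-5p all 3 hairpins share 3 bases after the arm, and before it MIR9-1 and MIR9-2 share 7 bases and MIR9-3 none with either. How the authors assigned reads that match several precursors is not stated in their labels.

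The share of mir-9-1 counts of miR-9-3p that was missing from mir-9-3 was 1.68%, 1.96% and 1.36% in the replicates of 0 h, 0.994%, 0.257% and 0.607% at 5 h, then 1.42%, 1.12% and 0.345% at 12 h. All 5 h libraries were below all 0 h libraries, and 12 h overlapped both. The same share, between the highest and the lowest row of a miRNA, did not overlap between 5 h and 0 h in 6 (14.6%) of 41 miRNAs with several precursors and at least 200 counts; between 12 h and either other time this was so in 4.88%. The mean of 3 libraries was 1.67% ± 0.303 (SD) at 0 h, then 0.619% ± 0.369 (5 h) and 0.964% ± 0.557 (12 h). The exact two-sided permutation p was 0.1 for 5 h against 0 h, 0.2 for 12 h against 0 h and 0.4 for 12 h against 5 h (0.3, 0.3 and 0.4 adjusted over the 3). In total 700 of 61084 counts were concerned. Of the 41 miRNAs, 24 had a lowest row less than 2% below the highest, and in the most uneven the lowest row held 14.8% of the highest. In some, such as miR-941 and miR-30c-5p, the lowest row held 100% of the highest in total. Such rows leave little or nothing to separate, so 14.6% and 4.88% may understate how often unequal rows do.

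Other miRNAs known from brain were mostly scarce in the same libraries. Of 14 listed miRNAs, 7 passed the filter on low counts, and 4 had 0 counts in all 9 libraries: the neuronal miR-124-3p with its other arm miR-124-5p, the oligodendrocyte miR-219a-2-3p, and miR-383-5p. A count of 0 allows up to 0.176 to 0.471 CPM per library. miR-7-5p, which is made in many cell types from an intron of HNRNPK, averaged 5452 ± 1495 CPM and was the only listed member above miR-9-3p. miR-128-3p, encoded in introns of R3HDM1 and ARPP21, averaged 263 ± 67.7 CPM, between the miR-9 arms. miR-153-3p averaged 30.0 ± 5.96 CPM and miR-138-5p 15.5 ± 5.91 CPM (SD over 9 libraries).

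The remaining members that passed the filter, miR-129-5p, miR-129-2-3p and miR-137-3p, averaged 2.29, 2.64 and 0.779 CPM and each had 0 counts in at least 1 library. The median level of the 14 was 0.590 CPM. Their summed level was 5564 to 6976 CPM at 0 h, then 4304 to 5282 CPM (5 h) and 4193 to 8532 CPM (12 h), most of it miR-7-5p. Of the 7 tested members, 0 passed at 5 h or 12 h against 0 h, where 1.57% and 1.43% of all rows passed, and a count of 0 of 7 near that background is no result about the list. Their median log2 change was 0.01 at 5 h and 0.70 at 12 h, beside 0.03 and 0.01 over all tested rows. The values above 0.70 came from the members with 0 counts in some library: miR-129-5p (0.96), miR-129-2-3p (0.82) and miR-137-3p (1.38). The others were miR-138-5p (0.70), miR-153-3p (0.35), miR-7-5p (0.14) and miR-128-3p (-0.36). Only miR-128-3p had a negative value, and a common rise of the list was not tested.

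**Figure D5:**
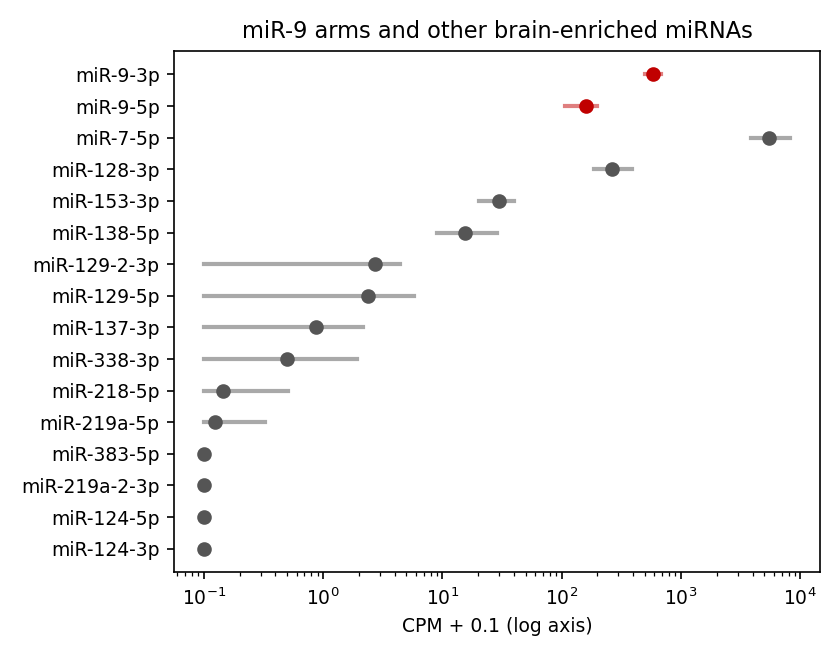
CPM + 0.1 (log axis) of the miR-9 arms (red) and of 14 other brain-enriched miRNAs (grey); points are means and lines run from the lowest to the highest of the 9 libraries. Only miR-7-5p lies above miR-9-3p, and 4 miRNAs have no counts.

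miRNAs reported, like miR-9-5p, to repress PRDM1, the gene of the transcriptional repressor Blimp-1, were taken as a further list. Of 8 members, let-7a-5p (86540 ± 7983 CPM), let-7b-5p (29117 ± 4530), miR-30d-5p (892 ± 125) and miR-30e-5p (539 ± 77.9) were above miR-9-5p, while miR-30c-5p and miR-30b-5p averaged 22.7 and 16.8 CPM and miR-30a-5p 0.751 CPM. miR-125b-5p had counts in 2 of 9 libraries. Of 7 tested members, 0 passed in any of the 3 comparisons, which is near the background of 1.57%, 1.43% and 0.571% of all rows and carries no result about the list. Their median log2 change was 0.02 at 5 h and 0.09 at 12 h against 0 h, beside 0.03 and 0.01 over all rows. PRDM1 itself was not measured in these small RNA libraries.

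Finally, the miRNAs whose course over the 9 libraries was most like that of each arm were found as those with the smallest root mean square difference in centred log2 CPM, among 244 others with a mean of at least 10 CPM. For miR-9-5p these were miR-186-5p (0.12), miR-30e-5p (0.14), miR-146b-5p (0.14), miR-22-3p (0.14) and miR-324-5p (0.15), against a median of 0.37 over all 244. For miR-9-3p they were miR-26a-5p (0.07), let-7f-5p (0.09), miR-26b-5p (0.10), miR-142-5p (0.10) and miR-454-3p (0.11), against a median of 0.28. The other arm of the same duplex was farther away, at 0.27: miR-9-3p was number 57 in likeness to miR-9-5p, and miR-9-5p number 105 in likeness to miR-9-3p. These distances describe 9 libraries that differ in depth and share 1 scaling, and a miRNA with a flat course is close to any other flat one.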

How the data were processed

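Column-purified total RNA went into RealSeq library kits, per the labels. The authors deposited raw counts per pair of precursor and mature miRNA, and a table of log2 normalised values (430 rows, the 6 miR-9 rows among them). The submitters' processing notes name GRCh38.p13 and DESeq2; aligner and counting tool: not given in the sources used here. The members, lists and tests were chosen with earlier results of these data known.

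Of 1214 rows above 0, 701 passed filterByExpr (minimum count 10, total 15). They were scaled by TMM and fitted in edgeR 4.0.16 (R 4.3.3) with 1 mean per time, a quasi-likelihood test and Benjamini-Hochberg adjustment over all rows; the 95% intervals use the fit's degrees of freedom. The mir-9-1 rows, which had the highest totals, stand for the arms. Arm ratios (0.5 added) were tested with limma 3.58.1 and exact permutation. Named besides the members were 3 neighbours in level on each side, 5 miRNAs of like course and up to 4 leading list members; the others were named after their values were seen. Sequences come from RefSeq, hairpins were aligned with Biopython 1.88, and DESeq2 1.42.0 and limma-voom were alternatives. Replicates showed no duplicated library (chi-square over degrees of freedom of at least 70.4).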

Additional observations from a re-analysis of the deposited data

How the results depend on the processing

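In every alternative run (3 other scalings, no filter, a filter of 10 CPM in 3 libraries, DESeq2, limma-voom, 1 row per mature name, averaged precursor rows, only the 2 times compared, the deposited log2 values, the replicate number as a block, and libraries left out) no miR-9 comparison passed the threshold. The log2 change of miR-9-5p at 5 h against 0 h stayed between 0.34 and 0.48 (adjusted p 0.358 to 1) and at 12 h against 5 h between -0.64 and -0.24 (0.157 to 0.960). Its change at 12 h against 0 h, near 0, turned negative with RLE factors (-0.0083), no filter (-0.015), the stricter filter (-0.013), DESeq2 (-0.0077) and the deposited log2 values (-0.047). Leaving out 1 library gave -0.25 to 0.16; it was negative without replicate 1 (-0.05) or 3 (-0.03) of 0 h, replicate 1 of 12 h (-0.25) and replicates 1, 2 and 3 of 5 h (-0.01, -0.01 and -0.03). For miR-9-3p the change at 5 h against 0 h was 0.015 with library totals, and with upper quartile factors the changes at 12 h were 0.043 against 0 h and 0.088 against 5 h. Those factors raised the median of all rows by 0.16 in both comparisons, and relative to the median of all rows miR-9-3p was at -0.12 and -0.04. Without replicate 2 of 5 h the change at 12 h against 5 h was 0.068, in a range of -0.13 to 0.068 over single libraries left out. The arm ratio at 12 h against 0 h ranged from -0.079, without replicate 1 of 12 h, to 0.21. With replicate 3 left out at both 0 h and 12 h (these are the shallowest), miR-9-5p was at 0.38, 0.14 and -0.24 in the 3 comparisons.

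The number of rows passing at 5 h against 0 h was 17 with no filter and 5 on the deposited log2 values, against 11. At 12 h against 0 h it was 6 on the deposited log2 values and 6 with only the 2 times, against 10. At 12 h against 5 h it was 12 with no filter, and 3 to 10 with 1 library left out, 10 without replicate 1 of 12 h, against 4. The cause was not tested. With the replicate number as a block, 11 rows passed at 12 h against 5 h, and miR-9-5p at 12 h against 0 h was at -0.0061. Same-numbered libraries deviated together with a correlation of only -0.03 to 0.06. In 7 of 18 checks a library was closest to its own number. These checks found no sign that the numbers pair the samples, but they cannot show that the samples were unpaired.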
